A study of Homo sapiens with 9 samples.

Results

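Interferon-stimulated genes are the genes that cells switch on when an interferon binds its receptor, and 43 of them were followed here among 56823 annotated genes. They were named by symbol, with earlier results of these data known: 4 transcription factors, 4 sensors of foreign RNA and 35 effectors. All 43 were found in the expression tables, and 42 had enough reads to be tested. The exception was IFI27, an effector, with 2, 0 and 6 reads in the gRNA1 libraries and no read in any gRNA2 or control library.

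Type I and type III interferons act through JAK kinases on a complex of STAT proteins and IRF9, which binds a DNA element called the interferon-stimulated response element (ISRE) in the promoters of its targets. Many effectors then block steps in the life cycle of viruses, at entry, translation, replication or budding. Epithelial cells, from which lung adenocarcinoma arises, make a low basal level of many of these RNAs without added interferon, and cytosolic sensors such as RIG-I can raise them when they meet double-stranded RNA.

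The cells were of the H1975 line, derived from a human lung adenocarcinoma with mutant EGFR, and carried a dCas9-KRAB repressor that doxycycline switches on. dCas9-KRAB is a Cas9 without cutting activity fused to a domain that silences chromatin where a guide RNA places it. The 9 libraries form 3 groups of 3: guide gRNA1 against the long noncoding RNA TRIDENT, guide gRNA2 against TRIDENT, and a non-targeting control guide. All groups carried the repressor, grew under G418 and puromycin, and had doxycycline at 4 ug/ml for 72 hours, so each comparison is between guides and not with or without the repressor. No label mentions interferon or a virus as a treatment. The labels do not say that replicates were separate cultures, so the p-values measure the spread between these libraries, which may be technical.

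Library totals ran from 16918432 to 26466536 reads, and replicates of each group differed by more than counting noise. TRIDENT, matched to the annotated gene AC005736.1, had 36, 49 and 38 reads in the gRNA1 libraries, 61, 60 and 42 in the gRNA2 libraries and 49, 56 and 62 in the control libraries. It stood at 0.745-fold with gRNA1 (edgeR adjusted p = 0.128) and 0.945-fold with gRNA2 (adjusted p = 0.81) relative to control, so neither difference passed the test. The gRNA1 libraries lay below all controls and the gRNA2 libraries overlapped them. Epithelial markers summed to between 1950 and 2100 TPM in every library. Markers of blood cells summed to 43.7 to 54.5 TPM, nearly all of it CD68, with HBB at 0 reads in all libraries and CD3E at 1 read in 1 of them. By group, blood markers summed to 43.7 to 46.2 TPM with gRNA1, 48.8 to 54.5 with gRNA2 and 44.2 to 50.1 in control, and fibroblast markers to 10.3 to 12.4, 9.3 to 12.5 and 10.4 to 11.5, with COL3A1 at 0. Endothelial markers were near 0 but differed, at 0.78 to 1.03 TPM with gRNA1, 0.659 to 0.807 with gRNA2 and 0.464 to 0.667 in control, mainly through CDH5, with 59, 54 and 58 reads with gRNA1, 47, 56 and 32 with gRNA2 and 24, 17 and 13 in control; PECAM1 and VWF overlapped between groups. Their part in the results was not tested.

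The ISRE core was searched as 2 copies of GAAA with 2 free bases between them, on either strand, from 250 bases before to 50 after each start in RefSeq's promoter table (GRCh38.p14). The core was found for 23 of the 34 members that the table holds (67.6%), against 1195 of all 27305 genes in it (4.38%). Members not in the table were IRF7, DHX58, IFIT2, IFITM2, USP18, OAS2, OASL, MX2 and TRIM22. A match is a match of letters and does not show that a factor binds there. The windows below are shown because they belong to members whose RNA differed between groups and were chosen after their values were seen; capitals mark the core or, for a core on the opposite strand, its complement.
IFITM1 chr11:313790-314089 (plus strand): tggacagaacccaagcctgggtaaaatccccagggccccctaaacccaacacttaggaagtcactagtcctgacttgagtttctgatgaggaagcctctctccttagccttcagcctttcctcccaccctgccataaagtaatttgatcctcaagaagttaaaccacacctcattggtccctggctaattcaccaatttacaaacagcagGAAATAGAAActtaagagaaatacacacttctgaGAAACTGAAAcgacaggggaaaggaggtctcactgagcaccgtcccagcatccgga
IFITM3 chr11:320811-321110 (minus strand): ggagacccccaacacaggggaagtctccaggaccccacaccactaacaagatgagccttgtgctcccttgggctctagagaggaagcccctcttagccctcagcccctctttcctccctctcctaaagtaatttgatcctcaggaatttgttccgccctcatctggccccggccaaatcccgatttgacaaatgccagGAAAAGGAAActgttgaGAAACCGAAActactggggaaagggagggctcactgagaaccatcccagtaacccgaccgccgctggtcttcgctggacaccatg
IFIT3 chr10:89332279-89332578 (plus strand): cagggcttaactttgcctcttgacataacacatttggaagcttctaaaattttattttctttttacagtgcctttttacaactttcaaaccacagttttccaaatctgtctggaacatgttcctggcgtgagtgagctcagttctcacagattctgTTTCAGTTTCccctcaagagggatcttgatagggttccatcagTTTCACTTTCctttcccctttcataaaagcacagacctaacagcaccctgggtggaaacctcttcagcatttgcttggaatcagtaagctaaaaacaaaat
RSAD2 chr2:6877527-6877826 (plus strand): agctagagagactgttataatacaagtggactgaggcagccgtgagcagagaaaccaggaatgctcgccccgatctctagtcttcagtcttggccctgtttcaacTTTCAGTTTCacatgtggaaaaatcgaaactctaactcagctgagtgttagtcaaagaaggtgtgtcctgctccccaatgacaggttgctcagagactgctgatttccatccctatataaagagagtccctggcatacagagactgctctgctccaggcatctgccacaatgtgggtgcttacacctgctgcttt
DTX3L chr3:122564088-122564387 (plus strand): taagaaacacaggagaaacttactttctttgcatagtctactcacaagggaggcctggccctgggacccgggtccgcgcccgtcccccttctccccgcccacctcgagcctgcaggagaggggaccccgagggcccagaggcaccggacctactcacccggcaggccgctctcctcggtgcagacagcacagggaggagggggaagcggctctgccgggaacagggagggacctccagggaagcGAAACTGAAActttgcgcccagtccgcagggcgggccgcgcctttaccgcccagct
RIGI chr9:32526147-32526446 (minus strand): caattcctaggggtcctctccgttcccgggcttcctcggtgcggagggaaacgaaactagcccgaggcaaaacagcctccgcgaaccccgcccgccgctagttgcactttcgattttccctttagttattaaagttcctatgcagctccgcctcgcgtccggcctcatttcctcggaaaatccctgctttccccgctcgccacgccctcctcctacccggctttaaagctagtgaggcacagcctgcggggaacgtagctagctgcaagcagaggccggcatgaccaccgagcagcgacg
IFITM1 and IFITM3 each held 2 cores on the same strand, close to the start. IFIT3 held 2 cores on the opposite strand, and its other listed window held 2 as well. RSAD2 held 1 core in the window shown and none in its other window. The DTX3L window reaches into that of PARP9, a gene read in the opposite direction, and the same core lies in both. RIGI, which fell with both guides, held no match in its window. That window does hold 2 copies of GAAA with 1 base between them, a spacing that the search did not allow. The same arrangement stands in windows of OAS1, XAF1, CMPK2 and IFI35. It also stands in the other RSAD2 window and in an MX1 window. All these windows were counted as without a match.

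Levels are compared between genes in TPM, which is scaled by transcript length. The order was led by the IFITM family, with a mean over the 9 libraries of 485 TPM for IFITM2, 305 for IFITM3 and 274 for IFITM1. LGALS3BP, a secreted glycoprotein, came next at 108 TPM, and ADAR (47.7), ISG15 (46.8) and EIF2AK2 (44.8) followed within one another's range across libraries. Among the factors STAT2 stood at 35.8 TPM, IRF9 at 34.0, IRF1 at 9.07 and IRF7 at 1.84. The sensors were low: RIGI at 12.6 TPM, IFIH1 at 11.3, DHX58 at 4.56 and TLR3 at 0.474. From STAT2 down, each gene's range over libraries overlapped that of the next, except between BST2 and IFIT3 and between SAMD9L and TLR3, as the plot of levels shows.

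**Figure D1:**
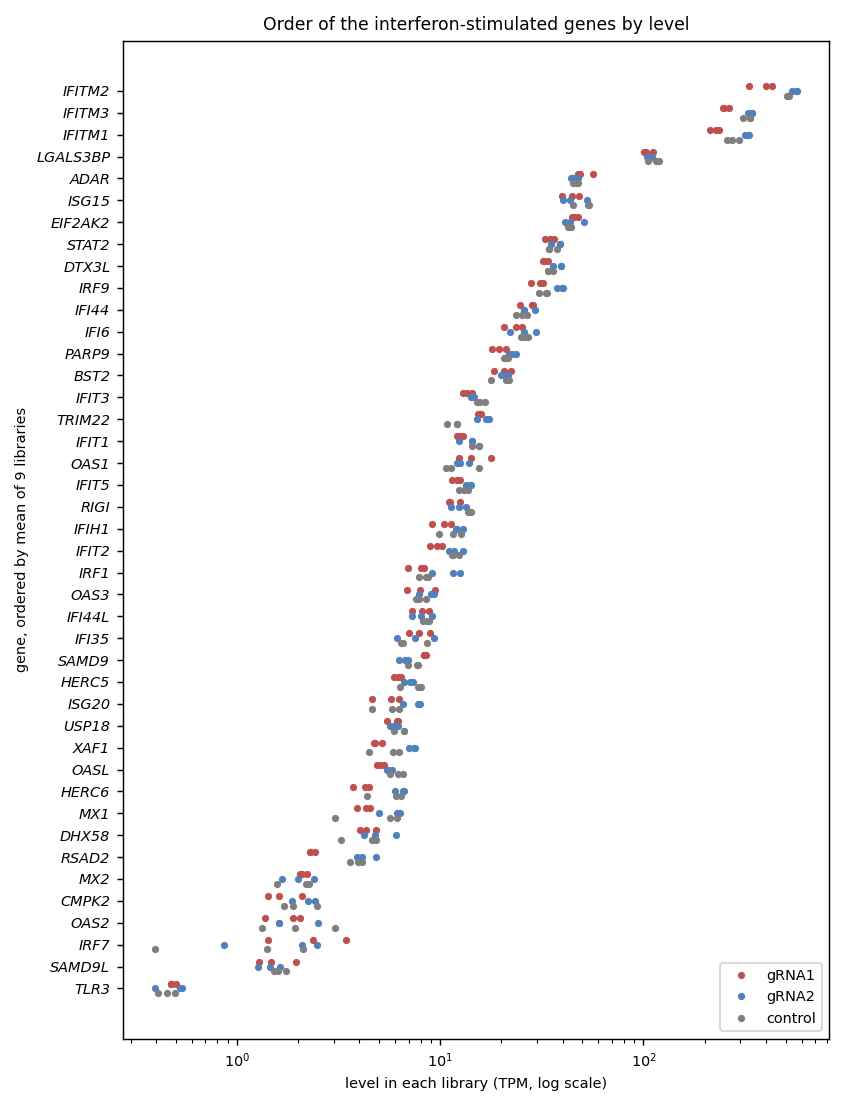
Level of each member in every library, in TPM on a log axis, ordered by the mean of the 9 libraries; each point is 1 library, coloured by group. The 3 IFITM genes sit at the top, between 212 and 571 TPM, and TLR3 at the bottom, between 0.395 and 0.540 TPM; IFI27, at 0 in most libraries, is left out.

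The 43 members summed to 1552, 1537 and 1384 TPM in the gRNA1 libraries, 1888, 1891 and 1884 TPM in the gRNA2 libraries and 1773, 1822 and 1696 TPM in the control libraries. In that sum the gRNA1 libraries were the lowest and the gRNA2 libraries the highest, with no overlap. The sum of the members other than the IFITM genes overlapped between control and each guide. IFITM genes made up 58.2%, 58.5% and 57.0% of that sum with gRNA1, 65.2%, 64.5% and 64.0% with gRNA2 and 63.4%, 62.5% and 63.2% in control. In bulk RNA, fewer expressing cells and less RNA per cell cannot be told apart.

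With gRNA1, 10 of the 42 tested members were lower than in control and 2 were higher, at an edgeR p of 0.05 after Benjamini-Hochberg adjustment across the 19658 tested genes. Of all genes, 7.08% were called in this comparison, 3.58% lower and 3.49% higher. The median log2 change of the members was -0.111, beside 0 for all genes, and 32 of the 42 had a negative value. All 3 gRNA1 libraries lay below all 3 controls for 19 members and above them for 3, where 14.6% and 13.5% of all genes did so. With gRNA2, 3 members were lower than in control and 3 higher, beside 8.44% of all genes called, 4.75% lower and 3.69% higher, and the median was 0.034 beside 0.009. All 3 gRNA2 libraries lay above all 3 controls for 11 members and below them for 7, beside 13.6% and 13.7% of all genes. Set directly against gRNA1, gRNA2 had 12 members higher and 2 lower, beside 6.22% of all genes called, 3.12% higher and 3.1% lower, with a median of 0.141 beside 0.004. The comparisons with control share the same 3 control libraries, and the third comparison shares libraries with both, so they are not independent of one another. Members had a higher median level than all tested genes (4.31 against 3.46 log2 CPM) and a lower median SD within groups (0.0765 against 0.117, log2). The shares of all genes are therefore not shares among genes of like level and spread.

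**Figure D2:**
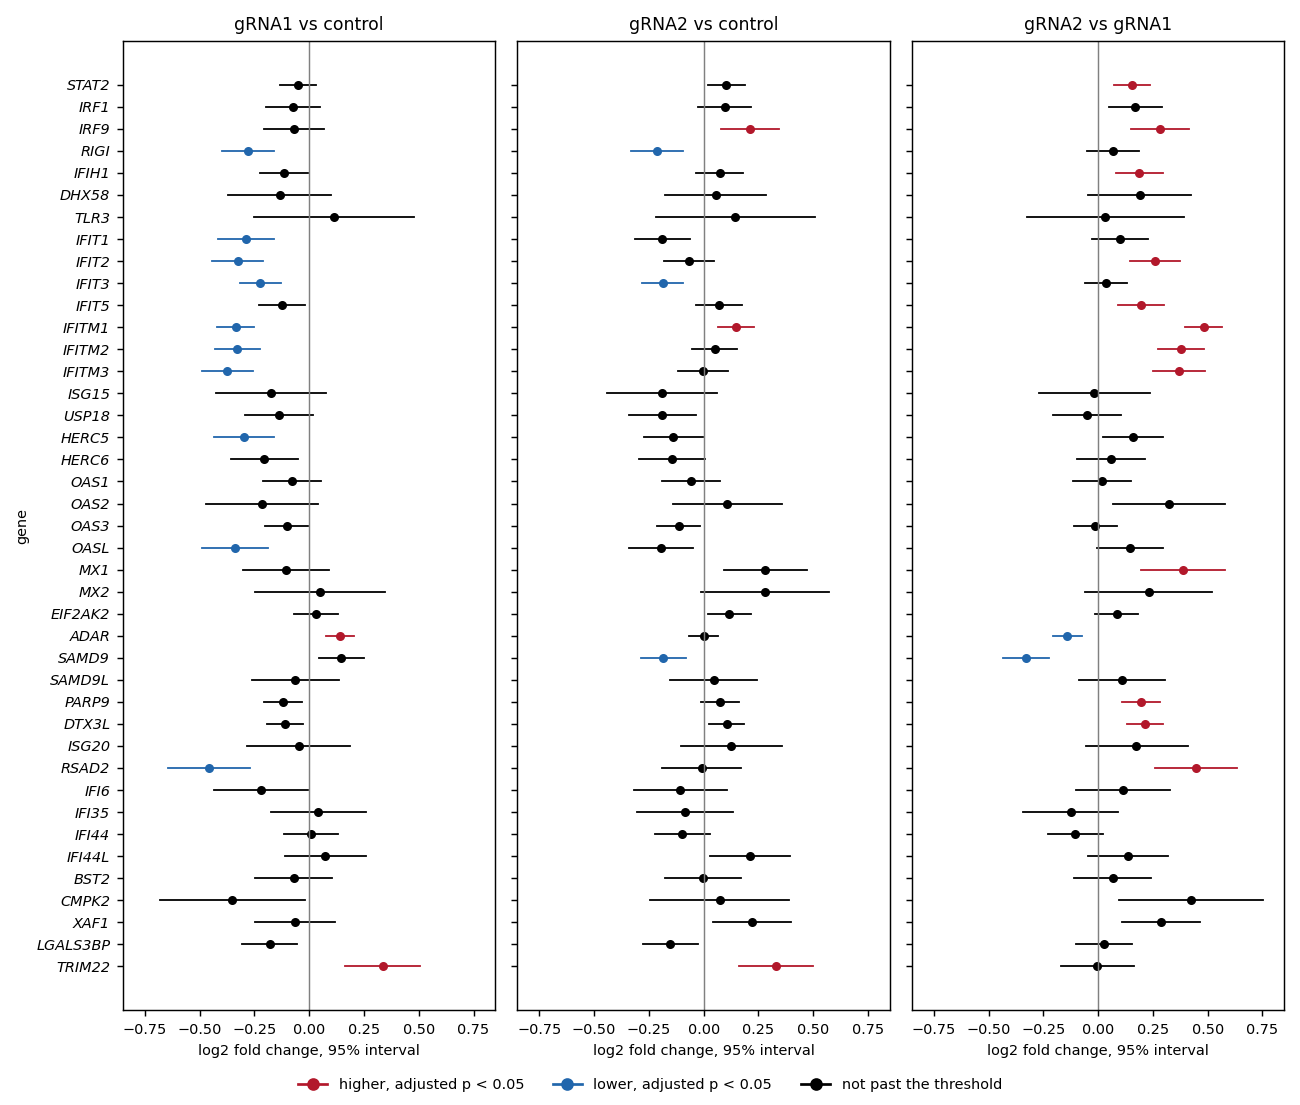
Log2 fold change of each tested member except IRF7 (points) with its 95% interval (lines) for gRNA1 against control, gRNA2 against control and gRNA2 against gRNA1; colours mark edgeR calls at an adjusted p of 0.05. In the first panel 10 members lie left of 0 as calls and 2 right of it, in the second 3 and 3, and in the third 2 and 12.

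The factors did not pass the test with gRNA1, while 1 of 4 was higher with gRNA2 than in control and 2 of 4 were higher with gRNA2 than with gRNA1. Beside this, 3.69% of all genes were called higher with gRNA2 than in control and 3.12% higher than with gRNA1. No factor reached an unadjusted p of 0.05 for gRNA1 against control in edgeR, where 4323 of all 19658 genes did, and DESeq2 called none. STAT2, which pairs with IRF9 in the complex that binds the ISRE, had 66.8, 67.0 and 67.4 CPM (counts scaled by library size) in the gRNA1 libraries, 75.9, 73.0 and 75.0 CPM in the gRNA2 libraries and 67.6, 69.5 and 71.2 CPM in the control libraries. The gRNA2 libraries stood above all the others, and the gRNA1 libraries just below control. Of the STAT2 reads over all libraries, 57.0% were assigned to a transcript that is not annotated as protein-coding. STAT2 was 1.11-fold higher with gRNA2 than with gRNA1 (edgeR adjusted p = 0.0299), a call that 11 of 16 other settings lost, among them the omission of control replicate 2 or of any gRNA1 or gRNA2 library (adjusted p 0.026 to 0.619 over all settings, with a log2 change of 0.08 in place of 0.15 once transcript lengths entered the fit), and 1.07-fold relative to control (adjusted p = 0.121).

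IRF9, the DNA-binding subunit of the same complex, had 17.4, 17.1 and 18.0 CPM in the gRNA1 libraries, 22.3, 21 and 20.5 CPM in the gRNA2 libraries and 19.1, 18.4 and 17.6 CPM in the control libraries. All 3 gRNA2 libraries were above the other 6, while gRNA1 and control overlapped. Of the IRF9 reads over all libraries, 42.1% were assigned to a transcript annotated as retaining an intron. IRF9 rose 1.22-fold with gRNA2 relative to gRNA1 (edgeR adjusted p = 0.0149) and 1.16-fold relative to control (adjusted p = 0.0483). The call against control was lost in 13 of 16 other settings, among them the omission of any single library except gRNA1 replicate 3 (adjusted p 0.0271 to 0.173), and the difference between guides without gRNA1 replicate 1, gRNA1 replicate 2 or gRNA2 replicate 2 (up to 0.0751). Of the 31-base words in its transcripts, 50.3% also occur in those of other genes, 45.2% in AL136295.5, so its estimated counts depend on how Salmon divided shared reads.

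IRF1, a factor induced by interferon gamma and by other signals, had 22.7, 20.7 and 21.7 CPM in the gRNA1 libraries, 24.2, 24.4 and 24.4 CPM in the gRNA2 libraries and 23.2, 22.5 and 22.7 CPM in the control libraries. Its gRNA2 libraries were above all others, but it missed the threshold against gRNA1 (edgeR adjusted p = 0.0989, 1.12-fold) and against control (adjusted p = 0.327, 1.07-fold).

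IRF7, which amplifies interferon production, had 52, 41 and 84 reads in the gRNA1 libraries, 24, 68 and 14 in the gRNA2 libraries and 39, 57 and 3 in the control libraries. Control replicate 3 was far below its group, gRNA2 varied almost as widely, and all groups overlapped. The SD of IRF7 within groups was 1.25 on the log2 scale, against 0.196 for CMPK2, the next most variable member, and a median of 0.0765 for the 42 members. IRF7 gave 1.83-fold with gRNA1 relative to control, with a 95% interval from 0.812 to 4.15, and was called in no comparison of the edgeR fit. Without the filter on low counts the same test called it higher with gRNA1 than in control (adjusted p = 0.00168) and lower with gRNA2 than with gRNA1 (adjusted p = 0.00216).

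Among the sensors 1 of 4 fell with each guide, and it was RIGI in both cases. Beside this, 3.58% of all genes were called lower with gRNA1 and 4.75% with gRNA2. RIGI encodes RIG-I, which recognises short double-stranded RNA with a triphosphate end. RIGI had 59.0, 65.5 and 60.1 CPM in the gRNA1 libraries, 59.8, 65.4 and 68.8 CPM in the gRNA2 libraries and 73.1, 74.4 and 76.9 CPM in the control libraries. Every library of either guide was below every control, and the guides overlapped each other. RIGI was 0.823-fold with gRNA1 (95% interval 0.758 to 0.894, edgeR adjusted p = 0.00717) and 0.862-fold with gRNA2 (0.794 to 0.936, adjusted p = 0.028). The gRNA1 call held in all 16 other settings, while the gRNA2 call was lost in 6 of them: with transcript lengths in the fit and without any 1 of the 3 controls, gRNA2 replicate 1 or gRNA2 replicate 2 (adjusted p 0.000977 to 0.12 over all settings).

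IFIH1, which encodes the long double-stranded RNA sensor MDA5, had 35.9, 35.4 and 33.5 CPM in the gRNA1 libraries, 38.1, 40.2 and 41.4 CPM in the gRNA2 libraries and 36.7, 38.3 and 38.4 CPM in the control libraries. The gRNA1 libraries were below both other groups, and gRNA2 overlapped control. IFIH1 was 1.14-fold higher with gRNA2 than with gRNA1 (edgeR adjusted p = 0.0417) and was not called against control with either guide. The call was lost in 11 of 16 other settings, among them the omission of control replicate 2 or 3, of any gRNA1 library or of gRNA2 replicate 2 or 3 (adjusted p 0.0245 to 0.253).

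DHX58, the regulator LGP2, had 5.72, 6.15 and 6.65 CPM in the gRNA1 libraries, 7.67, 7.29 and 5.95 CPM in the gRNA2 libraries and 6.74, 6.56 and 7.03 CPM in the control libraries. TLR3, the endosomal sensor of double-stranded RNA, had 2.32, 2.52 and 2.61 CPM in the gRNA1 libraries, 2.85, 2.63 and 2.04 CPM in the gRNA2 libraries and 2.09, 2.65 and 2.12 CPM in the control libraries. Both overlapped between all groups and passed no test; TLR3 rested on 34 to 69 reads per library, and its interval with gRNA1 ran from 0.839-fold to 1.39-fold.

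Of the 34 effectors tested, 9 fell and 2 rose with gRNA1 relative to control, 2 fell and 2 rose with gRNA2, and 2 were lower and 9 higher with gRNA2 than with gRNA1. Beside this, 3.58% of all genes were called lower and 3.49% higher with gRNA1, 4.75% and 3.69% with gRNA2, and 3.1% and 3.12% between guides. The IFITM family, membrane proteins that restrict the entry of enveloped viruses, gave the 3 lowest adjusted p-values of the members with gRNA1. Its genes lie together on chromosome 11: IFITM2 at chr11:307631-315272, IFITM1 at chr11:313506-315272 and IFITM3 at chr11:319669-327537 (GENCODE 29, GRCh38).

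IFITM1 had 177, 179.7 and 185 CPM in the gRNA1 libraries, 257, 255 and 243 CPM in the gRNA2 libraries and 234, 231 and 218 CPM in the control libraries. The groups did not overlap: gRNA1 was lowest, control between and gRNA2 highest. IFITM1 fell to 0.793-fold with gRNA1 (95% interval 0.748 to 0.840, edgeR adjusted p = 0.000171) and rose 1.11-fold with gRNA2 (1.04 to 1.17, adjusted p = 0.0311), both relative to control. It was 1.4-fold higher with gRNA2 than with gRNA1 (adjusted p = 8.45e-06). The gRNA1 call and the difference between guides held in all 16 other settings, and the rise with gRNA2 was lost in 7, among them the omission of control replicate 2, control replicate 3, gRNA1 replicate 2, gRNA2 replicate 1 or gRNA2 replicate 2 (adjusted p 0.00835 to 0.142).

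IFITM2 had 123, 114 and 115 CPM in the gRNA1 libraries, 161, 151 and 144 CPM in the gRNA2 libraries and 152, 142 and 146 CPM in the control libraries. IFITM3 had 155, 157 and 169.8 CPM in the gRNA1 libraries, 223, 199 and 199.6 CPM in the gRNA2 libraries and 221, 202 and 201 CPM in the control libraries. For both, the gRNA1 libraries lay below all the others, and gRNA2 and control overlapped. Relative to control IFITM2 fell to 0.796-fold (edgeR adjusted p = 0.00101) and IFITM3 to 0.772-fold (adjusted p = 0.000983) with gRNA1, while with gRNA2 they stood at 1.03-fold and 0.998-fold. Between guides gRNA2 was higher by 1.3-fold and 1.29-fold (adjusted p = 0.000343 and 0.000923), and these calls too held in all 16 other settings.

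The 3 IFITM genes share sequence: 56.0% of the 31-base words of IFITM3, 45.2% of IFITM2 and 35.3% of IFITM1 occur in other genes, those of IFITM1 and IFITM2 mainly in the family and those of IFITM3 also in AC136475.5, and the annotated spans of IFITM1 and IFITM2 overlap. Reads may therefore be divided unevenly among them, so their sum is given as well. It came to 903, 898 and 788 TPM in the gRNA1 libraries, 1230, 1220 and 1206 TPM in the gRNA2 libraries and 1124, 1139 and 1071 TPM in the control libraries. In the sum, too, the groups did not overlap, with gRNA1 lowest and gRNA2 highest.

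**Figure D3:**
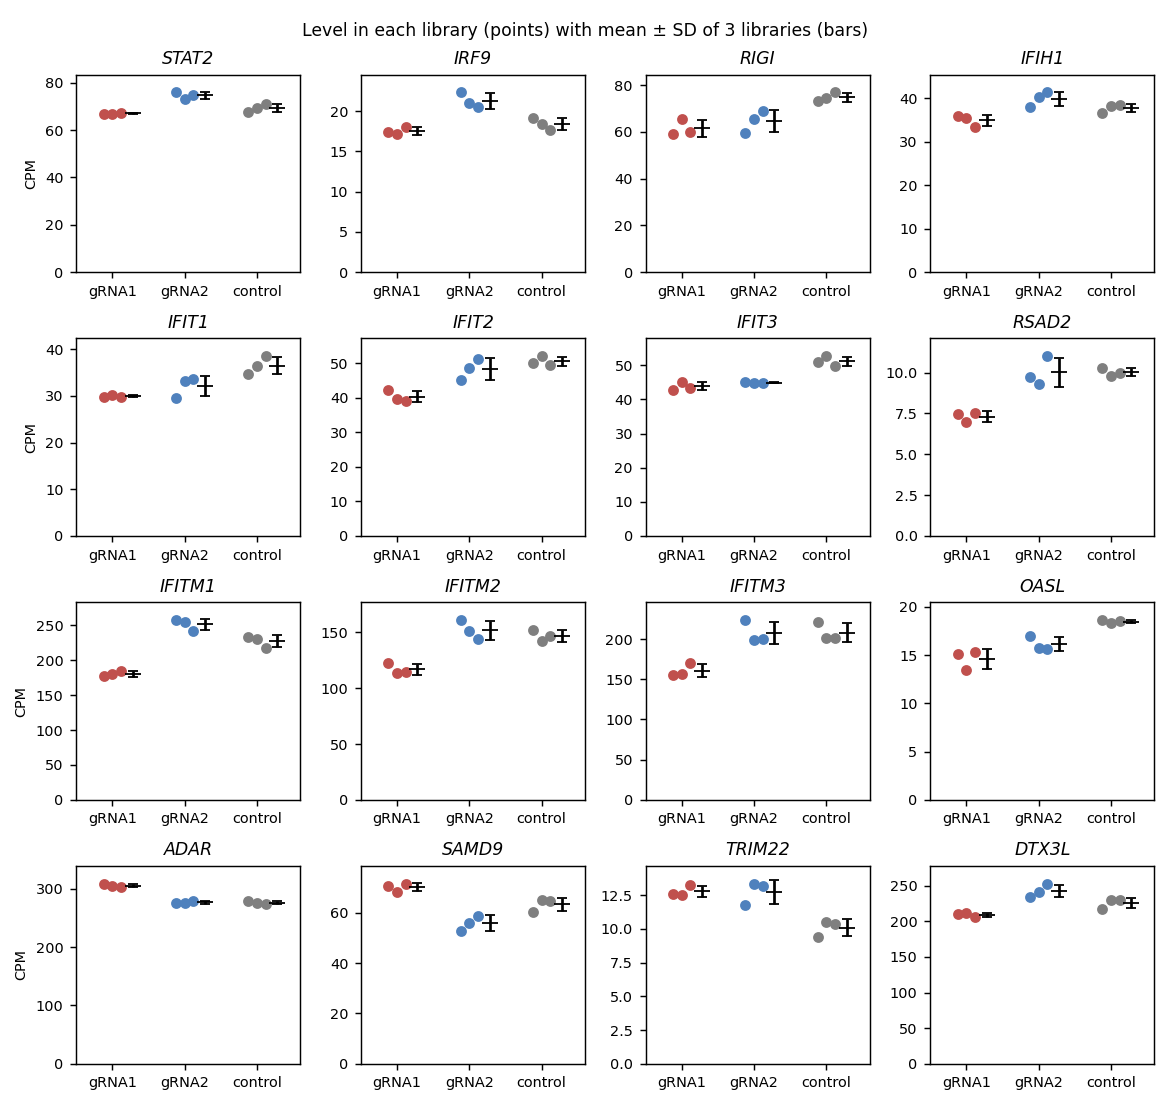
CPM of 16 members in each library (points; replicates 1 to 3 from left to right) with the mean ± SD of the 3 libraries of a group (black bars), each axis starting at 0. IFITM1 shows 3 separate groups, RIGI and IFIT3 have both guides below control, TRIM22 has both above it, and SAMD9 and ADAR are highest with gRNA1.

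IFIT1 binds viral RNA that lacks the methylation of host caps, and the 4 members of the IFIT family lie in a cluster on chromosome 10. With gRNA1, 3 of the 4 fell, beside 3.58% of all genes, and the fourth, IFIT5, stood at 0.918-fold without passing the test. IFIT1 had 29.8, 30.2 and 29.7 CPM in the gRNA1 libraries, 29.6, 33.2 and 33.6 CPM in the gRNA2 libraries and 34.6, 36.4 and 38.4 CPM in the control libraries. Every guide library was below every control. IFIT1 fell to 0.819-fold with gRNA1 (edgeR adjusted p = 0.00965, but 0.0624 without control replicate 3, the highest of a range from 0.00032) and stood at 0.877-fold with gRNA2 (adjusted p = 0.0655).

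IFIT2 had 42.1, 39.6 and 39.1 CPM in the gRNA1 libraries, 45.1, 48.6 and 51.3 CPM in the gRNA2 libraries and 50.02, 51.9 and 49.5 CPM in the control libraries. The gRNA1 libraries were below both other groups, and gRNA2 overlapped control. IFIT2 fell to 0.797-fold with gRNA1 relative to control (95% interval 0.736 to 0.863, edgeR adjusted p = 0.0023) and was 1.2-fold higher with gRNA2 than with gRNA1 (adjusted p = 0.0101). The fall held in all 16 other settings, and the difference between guides was lost with transcript lengths in the fit and without gRNA1 replicate 2 or gRNA2 replicate 2 (adjusted p 0.000502 to 0.0696).

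IFIT3 had 42.9, 45.2 and 43.5 CPM in the gRNA1 libraries, 45.2, 45.0 and 44.7 CPM in the gRNA2 libraries and 51.0, 52.6 and 49.8 CPM in the control libraries. All libraries of both guides lay below all controls, and the guides overlapped. IFIT3 fell to 0.857-fold with gRNA1 (edgeR adjusted p = 0.00682) and 0.879-fold with gRNA2 (adjusted p = 0.017). Without control replicate 2 these became adjusted p = 0.0521 and 0.0953, past the threshold in neither comparison, the highest of ranges from 0.00294 and 0.016. The gRNA2 call was also lost without gRNA2 replicate 2 (adjusted p = 0.0821) and with transcript lengths in the fit.

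IFIT5 had 47.0, 48.0 and 46.3 CPM in the gRNA1 libraries, 52.5, 54.5 and 54.9 CPM in the gRNA2 libraries and 47.9, 53.6 and 52.3 CPM in the control libraries. Only the guides were apart from each other, with control replicate 1 close to the gRNA1 libraries. IFIT5 was 1.14-fold higher with gRNA2 than with gRNA1 (edgeR adjusted p = 0.0299), a call that was lost with transcript lengths in the fit and without any 1 of the gRNA1 libraries, gRNA2 replicate 2 or gRNA2 replicate 3 (adjusted p 0.0166 to 0.177).

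RSAD2 encodes viperin, which makes a chain-terminating nucleotide that stops viral polymerases, and it had the largest fall of the called members. It had 7.44, 6.96 and 7.53 CPM in the gRNA1 libraries, 9.73, 9.31 and 11.0 CPM in the gRNA2 libraries and 10.3, 9.82 and 9.98 CPM in the control libraries, from 151 to 244 reads each. The gRNA1 libraries were lowest with no overlap, and gRNA2 spanned the controls. RSAD2 fell to 0.730-fold with gRNA1 relative to control (95% interval 0.641 to 0.831, edgeR adjusted p = 0.0061), stood at 0.993-fold with gRNA2, and was 1.36-fold higher with gRNA2 than with gRNA1 (adjusted p = 0.00731). With transcript lengths in the fit the log2 change of RSAD2 was -0.75 with gRNA1 relative to control in place of -0.46, and 0.81 between guides in place of 0.45. Its neighbour CMPK2, a nucleotide kinase, stood at 0.784-fold with gRNA1 without passing the test (adjusted p = 0.201).

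The ISG15 system attaches a small ubiquitin-like protein to others: ISG15 is the modifier, HERC5 its main ligase, USP18 the enzyme that removes it, and HERC6 a related ligase. HERC5 had 23.0, 22.7 and 22.9 CPM in the gRNA1 libraries, 25.7, 25.2 and 25.6 CPM in the gRNA2 libraries and 25.2, 29 and 29.8 CPM in the control libraries. The gRNA1 libraries lay below control, and control replicate 1 fell within the range of gRNA2. HERC5 fell to 0.814-fold with gRNA1 (edgeR adjusted p = 0.0121) but to no call in 4 of 16 other settings, those with transcript lengths in the fit or without control replicate 2, control replicate 3 or gRNA1 replicate 2 (adjusted p 0.00086 to 0.148). The other 3 genes passed no test, with log2 changes between -0.20 and -0.14 with gRNA1 and between -0.19 and -0.14 with gRNA2.

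The OAS enzymes make oligoadenylates that activate RNase L, and OASL, which lacks that activity, assists RIG-I. OASL had 15.1, 13.4 and 15.3 CPM in the gRNA1 libraries, 16.9, 15.7 and 15.7 CPM in the gRNA2 libraries and 18.6, 18.3 and 18.5 CPM in the control libraries. The controls were tight and above every guide library. OASL fell to 0.791-fold with gRNA1 (edgeR adjusted p = 0.00911, no longer called without gRNA1 replicate 2 or with transcript lengths in the fit, range 0.00161 to 0.0941) and stood at 0.874-fold with gRNA2 (adjusted p = 0.0985). OAS1, OAS2 and OAS3 were called in no comparison, at 0.948-fold, 0.861-fold and 0.932-fold with gRNA1.

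MX1, a GTPase that traps viral nucleocapsids, had 7.98, 9.27 and 9.26 CPM in the gRNA1 libraries, 11.5, 11.3 and 12 CPM in the gRNA2 libraries and 10.5, 9.33 and 8.78 CPM in the control libraries. All gRNA2 libraries were above the other 6, and gRNA1 overlapped control. MX1 was 1.31-fold higher with gRNA2 than with gRNA1 (edgeR adjusted p = 0.0196) and 1.22-fold relative to control without passing the test (adjusted p = 0.067). The call between guides was lost with transcript lengths in the fit and without gRNA1 replicate 1, gRNA2 replicate 2 or gRNA2 replicate 3 (adjusted p 0.0053 to 0.389). MX2, its relative, passed no test.

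PARP9 and DTX3L encode an ADP-ribosyltransferase and its partner E3 ligase, and they are read in opposite directions from neighbouring starts on chromosome 3. PARP9 had 86.8, 91.0 and 84.2 CPM in the gRNA1 libraries, 97.5, 101 and 102 CPM in the gRNA2 libraries and 93.6, 95.2 and 95.8 CPM in the control libraries. DTX3L had 210.2, 212 and 206 CPM in the gRNA1 libraries, 234, 242 and 252 CPM in the gRNA2 libraries and 217, 229.6 and 230.2 CPM in the control libraries. For both genes gRNA1 was lowest, control in the middle and gRNA2 highest, with no overlap between groups. Neither was called against control with either guide, and gRNA2 was above gRNA1 by 1.15-fold for PARP9 (edgeR adjusted p = 0.01) and 1.16-fold for DTX3L (adjusted p = 0.00409). Both calls were lost with transcript lengths in the fit, and that of PARP9 also without gRNA2 replicate 2 (adjusted p up to 0.107 for PARP9 and 0.0621 for DTX3L).

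A few effectors went the other way. ADAR edits adenosine in double-stranded RNA, which keeps the cell's own RNA from being sensed. It had 308, 304 and 303 CPM in the gRNA1 libraries, 276, 275 and 279 CPM in the gRNA2 libraries and 279.9, 276 and 274 CPM in the control libraries. The gRNA1 libraries were highest with no overlap, and gRNA2 and control coincided. ADAR rose 1.1-fold with gRNA1 relative to control (edgeR adjusted p = 0.0124) and was 0.907-fold with gRNA2 relative to gRNA1 (adjusted p = 0.0134). The first call was lost with transcript lengths in the fit and without control replicate 2, control replicate 3, gRNA1 replicate 1 or gRNA1 replicate 2 (adjusted p 0.0015 to 0.378). The second was lost with transcript lengths in the fit and without gRNA1 replicate 1, gRNA1 replicate 2 or gRNA2 replicate 2 (0.000995 to 0.119). The 2 transcripts that code for the full 1226 residues of the interferon-inducible p150 form made up 13.3% ± 4.89 of ADAR's TPM with gRNA1, 9.78% ± 3.34 with gRNA2 and 13.4% ± 4.44 in control (SD, n = 3). A transcript that codes for 1200 residues is not counted in them, so they are not the share of all long forms. These shares overlapped between groups, and Salmon's division of reads among overlapping transcripts adds to their spread.

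SAMD9 encodes a cytosolic protein that restricts poxviruses. It had 70.7, 68.4 and 71.3 CPM in the gRNA1 libraries, 52.8, 56.1 and 58.8 CPM in the gRNA2 libraries and 60.5, 64.9 and 64.5 CPM in the control libraries. The groups did not overlap, with gRNA1 highest and gRNA2 lowest, the reverse of IFITM1. SAMD9 fell to 0.880-fold with gRNA2 relative to control (edgeR adjusted p = 0.0315, lost in 8 of 16 other settings) and to 0.796-fold relative to gRNA1 (adjusted p = 0.000895, held in all 16), and with gRNA1 it stood at 1.11-fold relative to control (adjusted p = 0.0842). The call against control was lost, among others, without control replicate 2, control replicate 3, gRNA1 replicate 2, gRNA2 replicate 1 or gRNA2 replicate 2 (adjusted p 0.00969 to 0.143). Its neighbour SAMD9L passed no test.

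TRIM22, a ubiquitin ligase with antiviral activity, had 12.6, 12.6 and 13.2 CPM in the gRNA1 libraries, 11.8, 13.3 and 13.2 CPM in the gRNA2 libraries and 9.42, 10.5 and 10.4 CPM in the control libraries. All 6 guide libraries were above all 3 controls, and the guides overlapped. TRIM22 rose 1.26-fold with gRNA1 (edgeR adjusted p = 0.0214) and 1.26-fold with gRNA2 (adjusted p = 0.02) relative to control. The gRNA1 call was lost in DESeq2, on omission of control replicate 1 or 3, and on omission of each gRNA1 library in turn (adjusted p 0.0137 to 0.0751). The gRNA2 call was lost without control replicate 1, control replicate 3, gRNA2 replicate 2 or gRNA2 replicate 3 (0.0109 to 0.112). Of the 31-base words of TRIM22, 17.2% occur in other genes. The remaining effectors, ISG20, IFI6, IFI35, IFI44, IFI44L, BST2, XAF1, LGALS3BP and EIF2AK2, passed the edgeR test in no comparison, with log2 changes between -0.22 and 0.07 with gRNA1 and between -0.15 and 0.22 with gRNA2. LGALS3BP was called lower with gRNA1 by DESeq2 and in 3 other settings, and XAF1 was called higher between guides in 6 settings.

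In the edgeR fit, 22 of the 42 tested members were called in no comparison, and 6 of these (EIF2AK2, HERC6, IRF7, ISG15, LGALS3BP and XAF1) were called in at least 1 other setting. Of the other 20, 4 (IFIT2, IFITM2, IFITM3 and RSAD2) were lower with gRNA1 than with gRNA2 or control, and 6 (STAT2, IFIH1, IFIT5, MX1, PARP9 and DTX3L) were called between the guides alone. RIGI and IFIT3 were lower with both guides, TRIM22 was higher with both, and IFITM1 was lower with gRNA1 and higher with gRNA2.

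**Figure D4:**
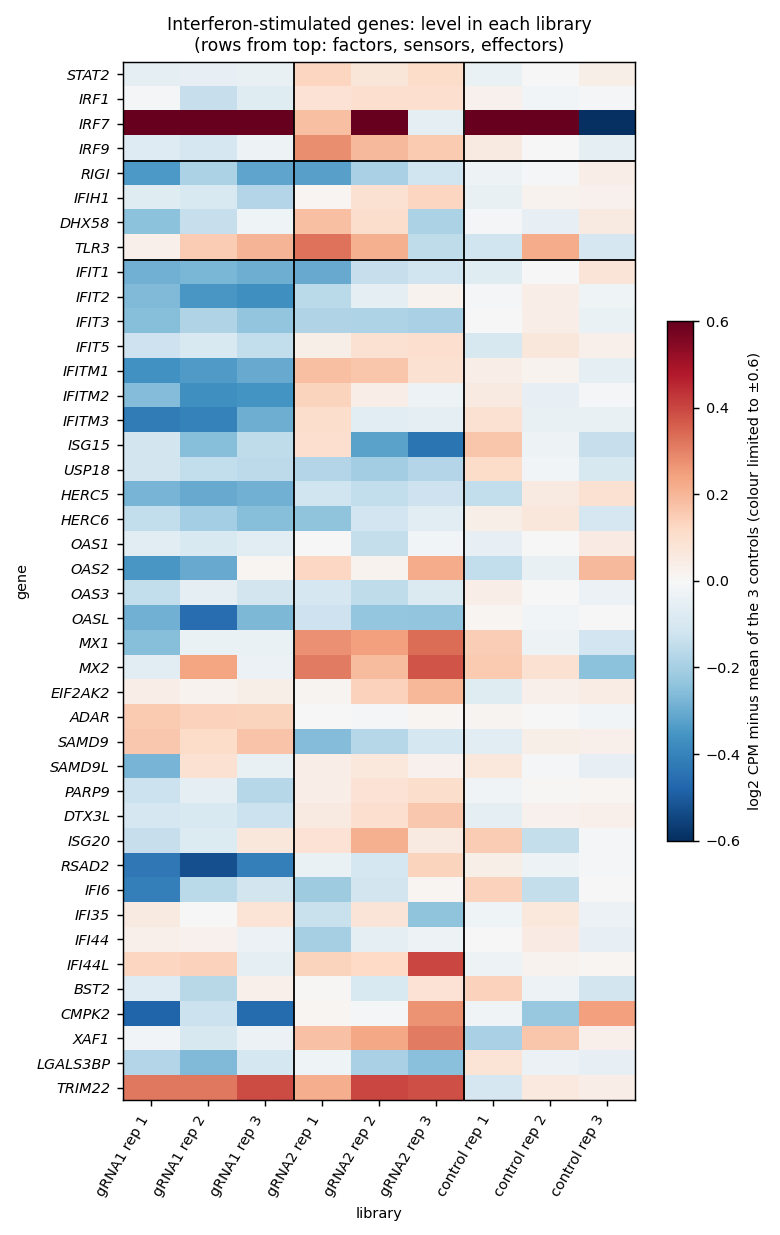
Log2 CPM, without a prior count, of each tested member in every library minus the mean of the 3 controls, with colour limited to ±0.6. Columns are gRNA1, gRNA2 and control libraries, and rows are factors, sensors and effectors. The gRNA1 columns are mostly blue in the IFIT, IFITM and ISG15 rows, and IRF7 exceeds the colour range in most libraries where control replicate 3 held 3 reads.

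The controls varied, so the mean log2 deviation from control was taken over members in each library. For the effectors it was -0.15, -0.128 and -0.117 in the gRNA1 libraries, -0.007, -0.01 and 0.033 in the gRNA2 libraries and 0.01, 0 and -0.01 in the control libraries. The gRNA1 libraries were apart from all others, while gRNA2 overlapped the controls, with gRNA2 replicate 3 above them all. For the sensors it was -0.157, -0.069 and -0.08 with gRNA1, 0.045, 0.052 and -0.081 with gRNA2 and -0.05, 0.045 and 0.005 in control. There gRNA2 overlapped both other groups, and gRNA1 was below control.

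Over all 42 members the mean was -0.109, -0.098 and -0.058 with gRNA1, 0.011, 0.037 and 0.023 with gRNA2 and 0.029, 0.032 and -0.061 in control. Control replicate 3 thus fell among the gRNA1 libraries. Without IRF7, a choice made after seeing the data, it was -0.143, -0.12 and -0.108 with gRNA1, 0.01, 0.006 and 0.028 with gRNA2 and 0.005, 0.004 and -0.009 in control, and gRNA1 no longer overlapped control. The overlap over all members was thus present only with IRF7, which had 3 reads in control replicate 3 and 84 in gRNA1 replicate 3. The part of each library was not tested. For all 4 factors it was 0.295, 0.125 and 0.461 with gRNA1, 0.129, 0.425 and 0.044 with gRNA2 and 0.269, 0.292 and -0.561 in control, with the groups overlapping. For the factors without IRF7, by the same later choice, it was -0.046, -0.097 and -0.048 with gRNA1, 0.164, 0.121 and 0.122 with gRNA2 and 0.015, -0.004 and -0.01 in control, with the 3 groups apart.

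The changes are given apart for members with and without a match to the searched core in their window. Those without a match include RIGI, OAS1, XAF1, CMPK2 and IFI35, which hold copies of GAAA 1 base apart. With gRNA1, the 22 tested members with a match had a median log2 change of -0.115, with 6 lower and 0 higher. The 11 without had -0.07, with 1 lower and 1 higher, and the 9 not in the promoter table had -0.14, with 3 lower and 1 higher. Of all genes, 3.58% were called lower and 3.49% higher. Between the guides, gRNA2 was higher for 8 of the 22 and lower for 1, with a median of 0.125. It was higher for 2 of the 11 and lower for 1, with a median of 0.11. Of all genes, 3.12% were called higher and 3.1% lower. These are descriptions, and the difference between members with and without a match was not tested.

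Upstream of the members, the RNAs of the 8 interferon genes looked up were near or at 0, except for IFNE. Other interferon genes were not looked up. IFNB1 had at most 1 read and IFNL1 at most 3 in any library, and IFNA1, IFNG, IFNK, IFNL2 and IFNL3 had 0 in all 9. Counts of 0 do not exclude levels too low to be seen at these depths. Only IFNE, with 24 to 65 reads, could be tested, and the main edgeR fit called it in no comparison. Its gRNA2 libraries lay below all the others in CPM. With gRNA2 it stood at 0.680-fold relative to control (edgeR adjusted p = 0.0833) and 0.671-fold relative to gRNA1 (adjusted p = 0.0904). Without gRNA1 replicate 3 both differences were called (adjusted p = 0.0487 and 0.0311). Of the 9 receptors and kinases (IFNAR1, IFNAR2, IFNGR1, IFNGR2, IFNLR1, IL10RB, JAK1, JAK2 and TYK2), edgeR and DESeq2 called 0 in every comparison. An unadjusted edgeR p under 0.05 was reached by 1 with gRNA1, 3 with gRNA2 and 2 between guides. Of all 19658 tested genes, 4323, 4580 and 3862 reached it in these comparisons, in the same order.

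Of the 11 adaptors and kinases of nucleic acid sensing that could be tested, edgeR called 1, TRIM25, and DESeq2 called a second with gRNA2, MAVS (adjusted p = 0.0483, against 0.0761 in edgeR). Beside this, edgeR called 4.75% of all genes lower with gRNA2 than in control and 3.1% lower than with gRNA1. TRIM25, a ubiquitin ligase that activates RIG-I, had 179.9, 178 and 177 CPM in the gRNA1 libraries, 159.8, 163 and 154 CPM in the gRNA2 libraries and 176, 176 and 174 CPM in the control libraries. The gRNA2 libraries were below all others. TRIM25 was 0.905-fold with gRNA2 relative to control (edgeR adjusted p = 0.0203) and 0.892-fold relative to gRNA1 (adjusted p = 0.0109). Its direction against control depended on the scaling: in TPM it stood at 68.0, 73.8 and 68.3 in the gRNA2 libraries and 59.3, 68.0 and 62.1 in the control libraries. With transcript lengths in the fit its log2 change was 0.09 relative to control (adjusted p = 0.451) and -0.01 relative to gRNA1 (adjusted p = 0.951). The call against control was also lost without any single control, gRNA2 replicate 2 or gRNA2 replicate 3 (up to 0.0845), and that between guides without gRNA1 replicate 1 (0.0583).

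Of 10 negative regulators of interferon signalling, edgeR called 2 lower with gRNA1, beside 3.58% of all genes. DESeq2 called 1 of the 2, SOCS3, while CISH had an adjusted p of 0.0668 there. None was called with gRNA2 in edgeR or DESeq2, and 1 had an unadjusted edgeR p under 0.05, beside 4580 of all 19658 genes. Between guides, 1 was higher with gRNA2 than with gRNA1, beside 3.12% of all genes. SOCS3, an inhibitor of JAK kinases, had 12.8, 12.6 and 13.5 CPM in the gRNA1 libraries, 17.5, 17.9 and 15.7 CPM in the gRNA2 libraries and 17.6, 17 and 15.1 CPM in the control libraries. CISH, of the same family, had 3.79, 3.16 and 3.50 CPM in the gRNA1 libraries, 4.74, 4.89 and 3.90 CPM in the gRNA2 libraries and 5.24, 4.44 and 5.38 CPM in the control libraries. For both genes the gRNA1 libraries were below all the others. With gRNA1 SOCS3 fell to 0.783-fold (edgeR adjusted p = 0.0148) and CISH to 0.695-fold (adjusted p = 0.0299) relative to control, and SOCS3 was 1.32-fold higher with gRNA2 than with gRNA1 (adjusted p = 0.00716). The SOCS3 call with gRNA1 was lost without control replicate 1, control replicate 2, gRNA1 replicate 1 or gRNA1 replicate 2 (up to 0.0723), and that of CISH with transcript lengths in the fit and without control replicate 1, control replicate 3 or any single gRNA1 library (up to 0.135).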

How the data were processed

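RNA was depleted of ribosomal RNA and made into libraries, per the labels' protocols. Per the submitters' processing notes, Salmon 1.4.0 and hg38 were used; the strand setting is not given in the sources used here. The authors deposited an estimated count of reads and a TPM value per transcript, per the file headers. Transcripts were matched to GENCODE 29 (95.71%), gene sums were rounded to whole numbers, and transcripts without a match, with 1.26% to 1.33% of reads, were not used. In edgeR 4.0.16 (R 4.3.3), filterByExpr kept 19658 genes, TMM scaled libraries, and quasi-likelihood F tests, two-sided, compared groups in 1 fit of all 9 libraries, with Benjamini-Hochberg adjustment over all genes. CPM uses TMM-scaled totals. Log2 CPM per library has a prior count of 2, except in the heat map, which has none. Intervals are 95%. The fit was tested on simulated data. The 16 alternatives were DESeq2 1.42.0, RLE scaling, no count filter, protein-coding genes alone, 2 groups alone, a replicate block, transcript lengths as an offset and leaving out each library. Members, lists and rules were chosen with earlier results of these data known: all members are accounted for, and those called in any comparison, all factors and all sensors are given per library; from the pathway lists, those called are named.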

Additional observations from a re-analysis of the deposited data

Results flagged for a closer look

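The log2 difference between the guides, gRNA2 minus gRNA1, passed the edgeR test at an adjusted p of 0.05 for 14 members. It was 0.48 for IFITM1, 0.45 for RSAD2, 0.39 for MX1, 0.38 for IFITM2 and 0.37 for IFITM3. It was 0.28 for IRF9, 0.26 for IFIT2, 0.21 for DTX3L, 0.2 for PARP9, 0.19 for IFIH1, 0.19 for IFIT5 and 0.15 for STAT2. ADAR (-0.14) and SAMD9 (-0.33) were lower with gRNA2. Among pathway genes outside the members the difference was -0.17 for TRIM25 (-0.01 with transcript lengths in the fit) and 0.4 for SOCS3. Both guides carry the same target label, and whether their difference comes from the guides, the cells or the libraries was not tested.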

How the results depend on the processing

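All 32 member calls kept their direction in the 16 other settings, while 30 of 94 member results that were not called turned in at least 1. Among pathway genes 1 of 5 calls turned: TRIM25 with gRNA2 had a log2 change of 0.09 relative to control with transcript lengths in the fit. Of the calls in members, 6 of 12 with gRNA1 held in all of them (RIGI, IFIT2, IFITM1, IFITM2, IFITM3 and RSAD2), 0 of 6 with gRNA2, and 5 of 14 between the guides (IFITM1, IFITM2, IFITM3, RSAD2 and SAMD9). With transcript lengths in the fit, 538 genes were called for gRNA1 against control in place of 1391, 434 for gRNA2 in place of 1659 and 446 between guides in place of 1222; members called for gRNA2 became 1 and between guides 8. A fit of the gRNA2 and control libraries alone called 3 members. Leaving out 1 library at a time gave 654 to 1701 genes and 8 to 13 members with gRNA1, 671 to 1817 and 0 to 6 with gRNA2, and 575 to 1215 and 6 to 15 between guides. The member counts with gRNA2 were 0 without gRNA2 replicate 2, 1 without control replicate 2, 1 without control replicate 3 and 3 without gRNA1 replicate 2. At an unadjusted edgeR p under 0.05 there were 13 without gRNA2 replicate 2, beside 18 in the main fit. Between guides the counts called were 8 without gRNA1 replicate 1, 8 without gRNA1 replicate 2 and 6 without gRNA2 replicate 2. The cause was not tested. With gRNA1, 60.9% of all calls were higher without gRNA1 replicate 2, in place of 49.4%.

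With the replicate number as a replicate block, 12 members were called with gRNA1, 5 with gRNA2 and 13 between guides. Same-numbered libraries did not deviate together (correlations of -0.046 to 0.073). The ISRE share was 55.9% with C required after the second copy and 70.6% with the second copy shortened by a base. The share of ADAR's 1226-residue transcripts by estimated counts was 18.1% with gRNA1, 12.4% with gRNA2 and 18.4% in control. Low-count members such as TLR3 and IRF7 limit what these depths can show.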
